A study of Mus musculus with 16 samples.

Results

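The 40 genes described here encode collagen chains. They were chosen by name alone: every gene whose symbol in the authors' deposited tables reads Col, a number, the letter a and a number was taken, which gave 40 of 55487 genes in the count table. Of these, 33 passed the filter on low counts and were among the 16549 genes tested. RNA was sequenced from the inguinal white adipose tissue (fat under the skin of the groin) of 16 male mice aged 6 to 7 months. The 4 groups, of 4 animals each, were mice with a whole-body knockout of Kmo fed a high-fat diet (KO HFD), wild-type littermates on the same diet (WT HFD), Kmo knockout mice fed chow (KO chow) and wild-type littermates fed chow (WT chow). Kmo encodes kynurenine 3-monooxygenase, an enzyme of tryptophan breakdown, and because the knockout was in the whole body it does not single out a cell type of the depot. The questions the design asks of these genes are how their levels differ between diets in each genotype and between genotypes on each diet.

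Collagens are secreted proteins of the extracellular matrix built as triple helices of 3 chains, from 1 gene or from several. Fibrillar chains (types I, III and V among others) form the tissue's fibres, type IV chains form the network of basement membranes that surrounds each adipocyte and vessel, and type VI chains form beaded filaments, which are prominent around fat cells. Fibril-associated chains such as types XII, XIV and XVI sit on fibre surfaces, and the multiplexins, types XV and XVIII, lie in or near basement membranes. Before secretion the chains are hydroxylated and glycosylated in the endoplasmic reticulum, and afterwards they are trimmed and cross-linked. In fat, fibroblasts and progenitor cells, adipocytes and vessel cells all make collagens.

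Libraries held 13824404 to 16909361 counted read pairs. Levels are given as counts scaled to library size (CPM) per kilobase of exon (CPM per kb), so that chains of different length can be compared. The length joins the exons of all annotated transcripts, and comparisons between chains depend on it. Differences are log2 fold changes of the edgeR quasi-likelihood test, with p adjusted over all genes tested and a call at an adjusted p under 0.05. Kmo had 1 to 2 counts in KO HFD, 42 to 215 in WT HFD, 2 to 8 in KO chow and 40 to 298 in WT chow libraries, as the genotype in every label says. Adipocyte markers were high in all libraries (mean log2 CPM of 5 genes 10.97 to 12.24). In 6 libraries, KO HFD 1, WT HFD 2, KO chow 1 and 3 and WT chow 2 and 4, the mean log2 CPM of 18 T and B cell genes (the lymphoid score) was 4 or more. The muscle score, from skeletal muscle genes, ran from −0.07 to 7.26 across libraries. A lower level in whole tissue can stand for fewer cells of a type or for less RNA per cell, and the counts cannot tell these apart.

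The sequences just before the start of 3 members are given here to set a member without a GC box beside 2 that have one. Col3a1 is shown as the most abundant member, Col5a1 as a chain that rose on HFD in both genotypes and Col27a1 as a chain that fell in both. Each is the 250 bases before the RefSeq start on GRCm38.p6, 5′ to 3′ on the gene's strand, and all of these genes lie on the plus strand: chr1:45311288-45311537 for Col3a1, chr2:27886175-27886424 for Col5a1 and chr4:63215162-63215411 for Col27a1. The Col27a1 window falls within the longer span that the counting annotation gives that gene. Capitals mark matches on either strand to any of 3 short motifs. The first, TATAAA, is the core of the element that places the start of many genes. The second, CCAAT, is bound by the factor NF-Y in many promoters. The third, GGGCGG, is known as the GC box and is bound by Sp1.
Col3a1: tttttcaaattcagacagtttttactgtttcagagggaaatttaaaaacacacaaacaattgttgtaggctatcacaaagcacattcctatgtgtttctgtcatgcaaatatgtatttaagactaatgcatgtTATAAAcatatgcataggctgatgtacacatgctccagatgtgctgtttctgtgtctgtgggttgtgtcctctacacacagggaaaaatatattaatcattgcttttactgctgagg
Col5a1: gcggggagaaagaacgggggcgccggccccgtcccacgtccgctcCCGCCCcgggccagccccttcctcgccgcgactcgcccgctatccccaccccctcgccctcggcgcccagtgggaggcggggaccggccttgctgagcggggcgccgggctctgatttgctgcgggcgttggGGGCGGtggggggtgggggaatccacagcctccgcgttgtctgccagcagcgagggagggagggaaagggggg
Col27a1: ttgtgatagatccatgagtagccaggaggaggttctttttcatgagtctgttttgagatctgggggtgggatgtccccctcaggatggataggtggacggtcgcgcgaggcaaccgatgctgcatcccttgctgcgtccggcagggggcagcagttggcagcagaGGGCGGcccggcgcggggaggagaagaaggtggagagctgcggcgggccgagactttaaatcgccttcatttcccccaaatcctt
Col3a1 had a TATAAA match and no other, Col5a1 had 2 GC box matches and Col27a1 had 1. Windows were found for 32 of the 40 members. Of these 32 genes, 20 held GGGCGG on either strand (32.7% of all 32851 windows in the RefSeq table did), 11 held CCAAT (33.9% of all windows) and 5 held TATAAA (12.4% of all windows). A match describes the letters and not a factor's binding.

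Collagen transcripts made up 1.27% to 1.72% of all counts in KO HFD, 1.34% to 1.89% in WT HFD, 0.564% to 1.31% in KO chow and 0.572% to 1.15% in WT chow libraries. The 13 most abundant members held 97.7% to 98.9% of the summed collagen level per length in each library. They were Col3a1, Col4a1, Col4a2, Col1a1, Col6a1, Col5a3, Col15a1, Col1a2, Col6a2, Col5a1, Col18a1, Col6a3 and Col5a2, in that order of mean level. The order depends on the exon lengths used. Before division by length, Col1a2 (12426 bases) had a mean CPM of 1184 and Col1a1 (6563 bases) 1024. Col3a1 ranked first in 14 of 16 libraries and Col4a1 in the other 2. Below the 13, mean levels fell from 38.0 CPM per kb (Col5a2) to 9.64 (Col14a1) and less.

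The other 20 members that passed the filter were Col14a1, Col16a1, Col28a1, Col4a5, Col12a1, Col23a1, Col8a1, Col27a1, Col6a6, Col4a4, Col20a1, Col6a5, Col13a1, Col4a3, Col11a2, Col6a4, Col7a1, Col9a3, Col17a1 and Col4a6. The 7 members below the filter were Col10a1, Col8a2, Col22a1, Col26a1, Col24a1, Col9a2 and Col11a1, with 80, 68, 95, 69, 50, 18 and 63 counts over all 16 libraries. Of these, the chains best known from cartilage, Col10a1, Col9a2 and Col11a1, reached no more than 0.265, 0.0976 and 0.0487 CPM per kb in any library. Another 4 collagen genes that the symbol rule did not take, because those tables do not list them, had 15 counts (Col19a1), 14 (Col25a1), 7 (Col2a1) and 13 (Col9a1) in all.

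Summed over all 40 members, the level was 2025 ± 311 CPM per kb in KO HFD, 2125 ± 268 in WT HFD, 1081 ± 419 in KO chow and 1154 ± 354 in WT chow (SD, n = 4 each). The HFD mean was 1.87 times the chow mean in KO and 1.84 times in WT. Libraries of KO HFD and KO chow overlapped, since KO HFD 1 stood at 1564 and KO chow 4 at 1616, while every WT HFD library lay above every WT chow library.

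The classes did not move by the same factor. Fibrillar chains summed to 919 ± 122 CPM per kb in KO HFD, 977 ± 208 in WT HFD, 555 ± 184 in KO chow and 608 ± 188 in WT chow, which is 1.66 times chow in KO and 1.61 times in WT. Basement membrane chains summed to 558 ± 139.9, 591 ± 95.6, 273 ± 119.97 and 281 ± 95.4 in the same groups, 2.05 times chow in KO and 2.10 times in WT. Type VI chains, the beaded filaments, were at 1.984 times chow in KO and 1.997 times in WT, and the multiplexins at 2.47 and 2.21 times. Fibril-associated chains had the largest factors, 2.79 in KO and 3.26 in WT, at a low level: 22.8 ± 3.85 CPM per kb in KO HFD, 29.5 ± 6.804 in WT HFD, 8.19 ± 4.97 in KO chow and 9.03 ± 5.62 in WT chow. Short-chain network collagens were at 1.53 times chow in KO and 1.78 times in WT. The transmembrane class, at 1.09 times chow in KO and 0.913 times in WT, and the anchoring fibril chain Col7a1, at 0.412 and 0.598 times, did not share the higher HFD levels. The remaining class, in which Col28a1 dominates, was at 1.31 and 1.89 times chow.

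As a share of the collagen total, fibrillar chains took 45.7% ± 4.77 in KO HFD and 45.7% ± 6.49 in WT HFD, against 51.99% ± 4.23 in KO chow and 52.8% ± 2.89 in WT chow, with ranges that overlapped between diets in both genotypes. Multiplexins took 10.4% ± 0.874 in KO HFD and 9.66% ± 1.79 in WT HFD, against 7.54% ± 1.57 in KO chow and 7.85% ± 1.204 in WT chow. These ranges also overlapped between diets in both genotypes. Beaded filament chains kept a share of 15.1% ± 0.615, 15.1% ± 1.22, 14.2% ± 1.12 and 14.05% ± 0.764 in KO HFD, WT HFD, KO chow and WT chow. These sums and shares are descriptions, with no test.

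**Figure D1:**
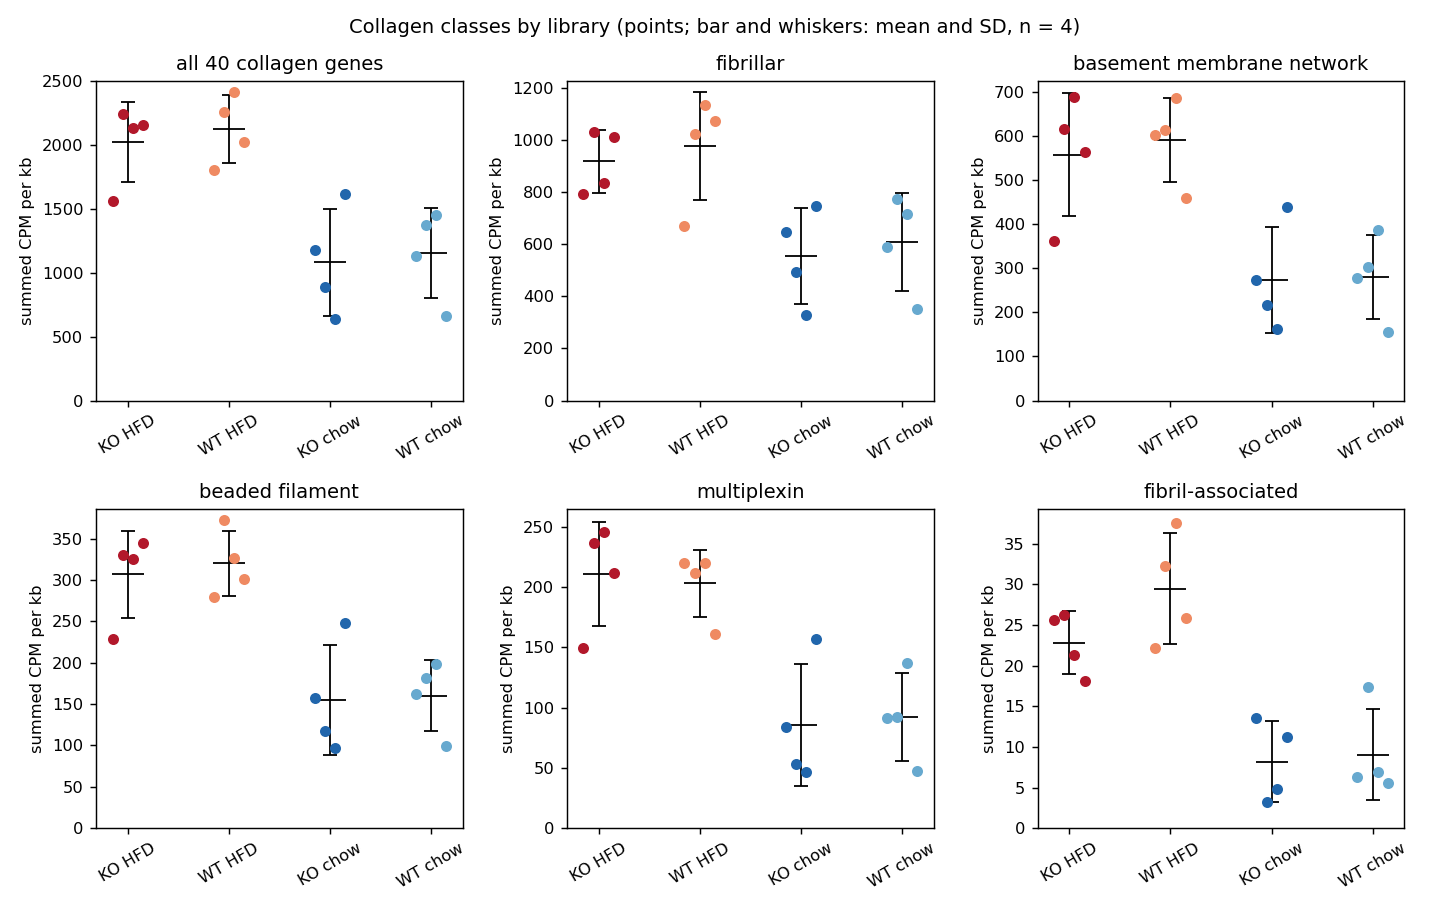
Summed CPM per kb of all 40 collagen genes and of 5 classes in each library, by group (points are libraries, bars and whiskers the mean and SD, n = 4; all y axes start at 0). The HFD means lie higher in every panel, and in the panel of all genes the lowest KO HFD library (1564) lies below the highest KO chow library (1616).

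In the comparison of HFD with chow in KO, 10 of 33 collagen genes were called, 8 higher and 2 lower, and in WT 11 of 33, 9 higher and 2 lower. Of all genes tested, 12.5% were called in KO (7.28% higher, 5.23% lower) and 11.8% in WT (6.9% higher, 4.92% lower). Both comparisons called 9 genes, Col4a1, Col4a2, Col5a1, Col6a1, Col6a2, Col12a1 and Col18a1 upwards and Col27a1 and Col20a1 downwards. Col15a1 was called in KO only and Col5a2 and Col16a1 in WT only, and for none of them was the difference between genotypes called (interaction adjusted p of 0.9999 for each by edgeR). The median log2 fold change of the 33 was 0.63 in KO and 0.62 in WT, beside −0.04 and −0.03 over all genes tested. Libraries of the diets did not overlap for 6 members above and 3 below in KO (10.2% and 8.47% of all genes) and for 11 above and 3 below in WT (10% and 7.43%). The number of calls within a genotype changed when single libraries were left out, for collagen genes and for all genes. In KO the number of collagen genes was 1 without KO HFD 2 or 3 or KO chow 2 or 3, 3 without KO HFD 4 and 6 without KO chow 1. In WT it was 1 without WT chow 4, 2 without WT HFD 2 or 3 or WT chow 1, 6 without WT HFD 1 and 7 without KO HFD 4, which enters through the shared estimate of spread. Calls over all genes without a single library ranged from 745 to 2714 in KO (2071 with all libraries). In WT they ranged from 689 to 2400 (1957 with all libraries).

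Over both genotypes together, 8 HFD against 8 chow libraries, 20 of 33 members were called, 17 higher and 3 lower, where 33.1% of all genes were (17.1% higher, 16% lower). Leaving out any single library gave 18 to 23 calls, and 4505 to 6041 over all genes (5471 with all libraries). In this comparison 8 members were called that were called within neither genotype: Col3a1, Col1a1, Col5a3, Col6a3, Col14a1, Col8a1 and Col6a6 upwards and Col11a2 downwards. The median was 0.64, beside −0.04 over all genes. All 8 HFD libraries lay above all 8 chow libraries for 3 members (4.33% of all genes) and below for 2 (2.53%). With upper-quartile factors in place of TMM the called collagen genes numbered 17 higher and 4 lower, while the calls over all genes moved to 2309 higher and 3298 lower, against 2827 and 2644 with TMM.

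**Figure D2:**
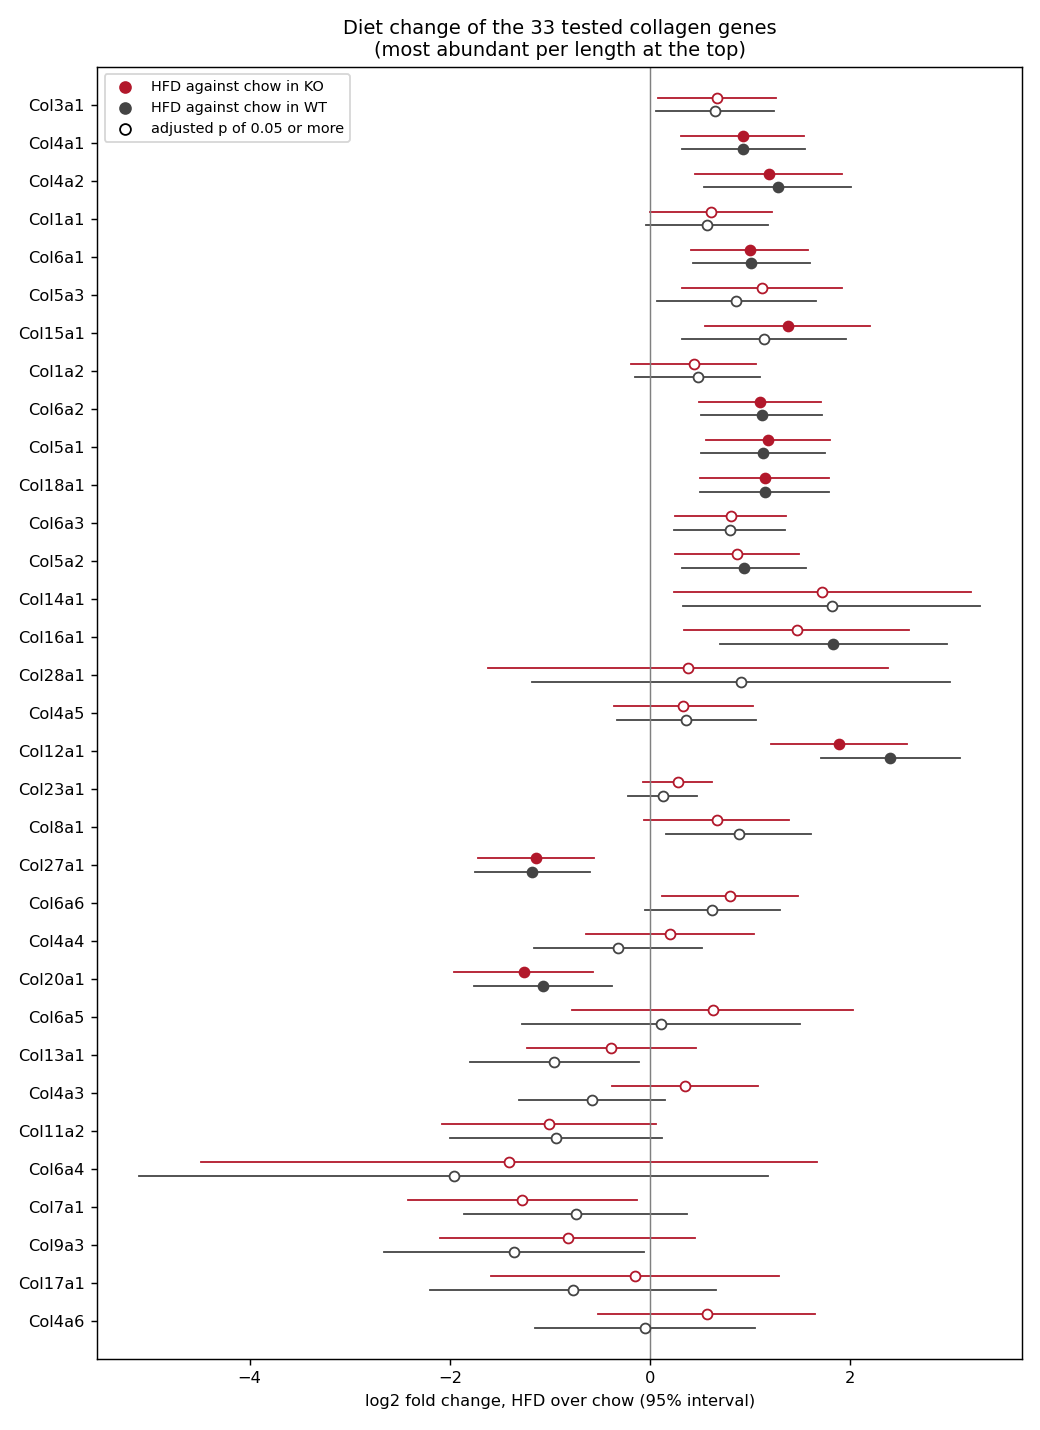
Log2 fold change of HFD over chow for the 33 tested collagen genes, with 95% intervals, in KO (red) and WT (grey); filled points have an edgeR adjusted p under 0.05, open points do not, and genes run by mean level per length. The abundant chains in the upper part lie right of 0 in both genotypes and Col27a1 and Col20a1 lie left of it.

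Among fibrillar chains, Col3a1 stood at 314, 416, 324 and 426 CPM per kb in KO HFD, 236, 414, 462 and 449 in WT HFD, 272, 222, 139.5 and 299 in KO chow and 257, 316, 276 and 144 in WT chow. Col3a1 encodes the chain of type III collagen, a partner of type I in fine fibres. In KO every HFD library lay above every chow library, and in WT the diets overlapped because WT HFD 1 lay below WT chow 1, 2 and 3. The log2 fold change was 0.67 in KO (edgeR adjusted p = 0.123) and 0.65 in WT (edgeR adjusted p = 0.131), and over both genotypes 0.66 (SE 0.20, adjusted p = 0.0183) by edgeR. Col1a1 stood at 188, 197, 138 and 188 CPM per kb in KO HFD, 125, 208, 216 and 239.9 in WT HFD, 140.4, 104, 67.2 and 155 in KO chow and 115, 186, 151 and 78.9 in WT chow. This is the first chain of type I collagen, the main fibre collagen, and its diets overlapped in both genotypes, with WT chow 2 above WT HFD 1 and KO chow 1 and 4 above KO HFD 3. Over both genotypes it rose by 0.59 (SE 0.20, adjusted p = 0.0348) by edgeR, a call lost in 9 of 16 fits without a library and in 6 of 12 other settings (edgeR adjusted p up to 0.112). Col1a2 stood at 109.5, 113, 79.5 and 124 CPM per kb in KO HFD, 61.02, 116, 126 and 153 in WT HFD, 95.9, 79.5, 50.04 and 89.4 in KO chow and 77.4, 121, 80.003 and 49.9 in WT chow. The second chain of type I overlapped between diets as well and was not called in any comparison, with 0.46 (adjusted p = 0.101) over both genotypes by edgeR.

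Of the type V chains, which take part in starting fibres, Col5a1 separated the diets fully. Col5a1 stood at 47.1, 69.1, 62.9 and 63.6 CPM per kb in KO HFD, 54.6, 65.7, 69.1 and 58.1 in WT HFD, 30.7, 20.2, 14.7 and 41.4 in KO chow and 27.2, 35.9, 34.8 and 15.5 in WT chow. Every HFD library lay above every chow library over both genotypes together, and the log2 fold change was 1.18 (SE 0.29, adjusted p = 0.0192) in KO and 1.13 (SE 0.29, adjusted p = 0.0243) in WT by edgeR. The Col5a1 call was lost in 4 of 16 fits without a library in each genotype. Col5a2 averaged 47.2 ± 7.24 CPM per kb in KO HFD, 52.1 ± 9.15 in WT HFD, 25.8 ± 10.1 in KO chow and 27.1 ± 9.28 in WT chow and was called in WT, at 0.94 (adjusted p = 0.0474), and not in KO, at 0.87 (adjusted p = 0.0616) (edgeR), and the WT call was lost in 13 of 16 fits without a library. Col5a3 stood at 95.5, 181, 184 and 162 CPM per kb in KO HFD, 154, 167, 199.6 and 119.7 in WT HFD, 78.96, 43.05, 40.6 and 124 in KO chow and 80.98, 80.7, 143 and 47.1 in WT chow. KO HFD 1 and WT HFD 4 lay below the highest chow libraries, KO chow 4 and WT chow 3, and the gene was called over both genotypes only, at 0.99 (SE 0.26, adjusted p = 0.010997) by edgeR.

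Col27a1 and Col11a2 were the fibrillar chains that fell. Col27a1 stood at 0.756, 0.702, 0.523 and 0.868 CPM per kb in KO HFD, 0.454, 0.921, 0.776 and 0.716 in WT HFD, 1.25, 1.92, 1.75 and 1.37 in KO chow and 1.71, 1.07, 1.18 and 2.52 in WT chow. Col27a1 encodes a fibrillar chain best known from cartilage. All 8 HFD libraries lay below all 8 chow libraries, and the log2 fold change was −1.14 (SE 0.27, adjusted p = 0.0162) in KO and −1.17 (SE 0.27, adjusted p = 0.0151) in WT by edgeR. The Col27a1 call was lost in 4 of 16 fits without a library in KO and 1 of 16 in WT. WT chow 4, the WT chow library lowest in the abundant chains, held the highest Col27a1 of all 16. Col11a2, a chain of cartilage type XI collagen, fell over both genotypes by 0.97 on the log2 scale (edgeR adjusted p = 0.0454) at 63 counts over KO HFD, 80 over WT HFD, 136 over KO chow and 153 over WT chow libraries. That call was lost in 10 of 16 fits without a library and in 6 of 12 other settings, and WT chow 4 alone stood at 0.771 CPM per kb where the other WT chow libraries ranged from 0.203 to 0.237. Of 7 cartilage and tendon markers 4 passed the filter, and 2 of these, Chad and Scx, were called lower over both genotypes (16% of all genes were; median of the 4, −0.68), 1, Chad, in WT and 0 in KO. Their mean log2 CPM was 0.37 to 0.84 in KO HFD, 0.19 to 1.001 in WT HFD, 0.32 to 1.06 in KO chow and 0.68 to 1.45 in WT chow, and their part in these falls was not tested.

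Both main chains of the basement membrane were called higher, Col4a1 near the threshold. Col4a1 stood at 195, 341, 366 and 314 CPM per kb in KO HFD, 309.9, 334, 367 and 267 in WT HFD, 165, 134, 97.8 and 244 in KO chow and 172, 179, 223 and 94.8 in WT chow. Col4a2 stood at 165, 274, 319 and 247 CPM per kb in KO HFD, 290.5, 278, 317 and 189 in WT HFD, 106, 81.7, 62.1 and 192 in KO chow and 103, 119, 162 and 59.8 in WT chow. In WT the diets did not overlap for either gene, and in KO they overlapped because KO HFD 1 lay below KO chow 4. Col4a1 rose by 0.92 (SE 0.29, adjusted p = 0.0466) in KO and 0.93 (SE 0.29, adjusted p = 0.0464) in WT, and Col4a2 by 1.19 (SE 0.35, adjusted p = 0.0372) in KO and 1.27 (SE 0.35, adjusted p = 0.0294) in WT (edgeR). The Col4a1 call was lost in 12 of 16 fits without a library and in 5 of 13 other settings in each genotype, while over both genotypes, at 0.93 (adjusted p = 0.00327) by edgeR, it held in 16 of 16 and in 12 of 12. The Col4a2 call was lost in 6 of 16 fits without a library in KO and 5 of 16 in WT. The genes stand head to head on chromosome 8, Col4a1 on the minus strand from 11198423 to 11312826 and Col4a2 on the plus strand from 11312805 to 11449287 (GRCm38), so that their annotated 5′ ends share 22 bases.

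The mean ratio of these head-to-head genes was lower in both HFD groups. Per length, Col4a1 over Col4a2 averaged 1.21 ± 0.0545 in KO HFD and 1.21 ± 0.147 in WT HFD, against 1.51 ± 0.162 in KO chow and 1.53 ± 0.127 in WT chow (SD, n = 4 each). The ranges were 1.15 to 1.27 in KO HFD, 1.07 to 1.41 in WT HFD, 1.27 to 1.64 in KO chow and 1.37 to 1.67 in WT chow, so KO did not overlap, narrowly, and WT did. The same held in the other direction for type V, where Col5a1 over Col5a2 averaged 1.29 ± 0.0376 in KO HFD and 1.201 ± 0.121 in WT HFD, against 1.02 ± 0.0836 in KO chow and 1.06 ± 0.1005 in WT chow. Col1a1 over Col1a2, which assemble in type I collagen as a pair of the first to each of the second, averaged 1.68 ± 0.1104 in KO HFD, 1.78 ± 0.203 in WT HFD, 1.46 ± 0.193 in KO chow and 1.62 ± 0.182 in WT chow. Its absolute size depends on the exon lengths used, 6563 bases for Col1a1 and 12426 for Col1a2, which join the exons of all annotated transcripts. These ratios are descriptions of the libraries, with no test.

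**Figure D3:**
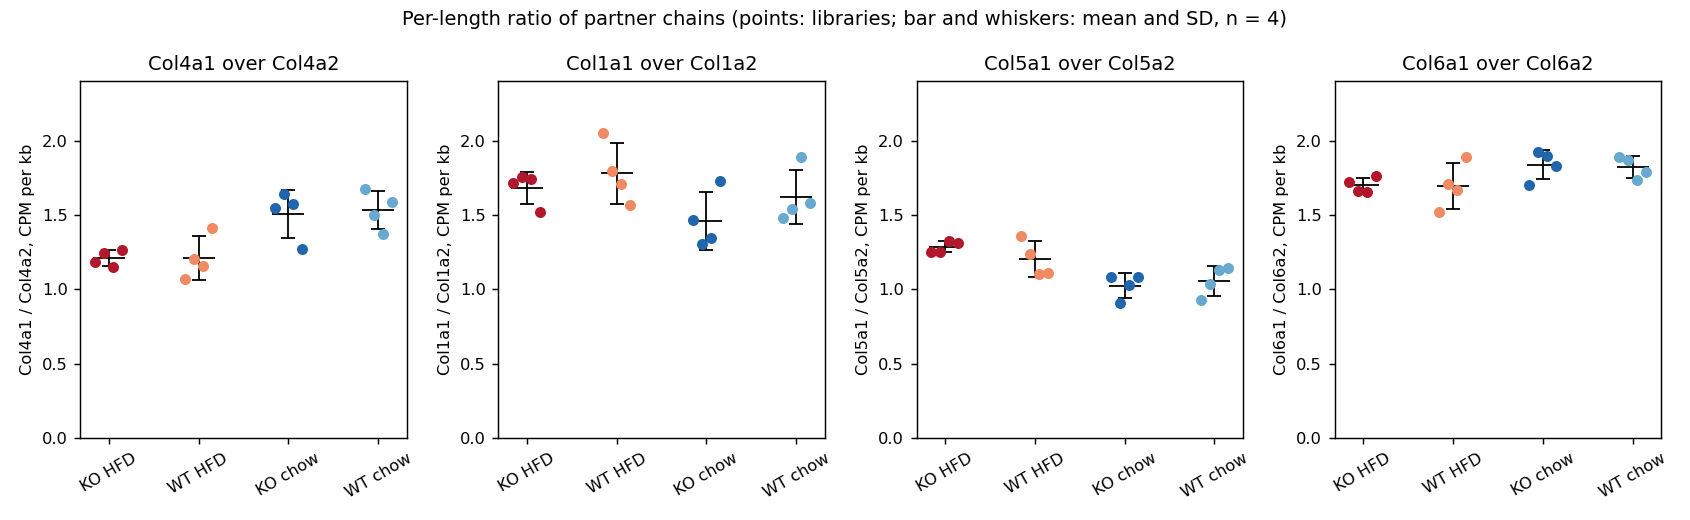
Ratio of partner chains in CPM per kb for 4 pairs, by group (points are libraries, bars and whiskers the mean and SD, n = 4; the y axes start at 0). Col4a1 over Col4a2 averages 1.21 in both HFD groups, against 1.51 in KO chow and 1.53 in WT chow, and Col5a1 over Col5a2 lies the other way.

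The other type IV chains, which make up the specialised basement membranes of organs such as the kidney, were low and none was called. Col4a5, the most abundant of them, had 0.33 (edgeR adjusted p = 0.517) in KO and 0.36 (edgeR adjusted p = 0.484) in WT. Col4a3 and Col4a4, another head-to-head pair, 71 bases apart, had fold changes of 0.35 and 0.20 in KO and −0.58 and −0.32 in WT on the log2 scale, with edgeR adjusted p between 0.277 and 0.761, and the difference between genotypes was not called. Col4a6 had 115 counts over all libraries.

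Of the type VI chains, Col6a1 and Col6a2 rose on HFD in both genotypes. Col6a1 stood at 123, 167, 171 and 178 CPM per kb in KO HFD, 147, 193, 166 and 163 in WT HFD, 80.8, 59.4, 48.1 and 132 in KO chow and 82.7, 95.8, 103 and 50.1 in WT chow. Col6a2 stood at 71.2, 101, 103 and 101 CPM per kb in KO HFD, 97.04, 113, 99.7 and 86.2 in WT HFD, 47.5, 30.9, 25.4 and 72.01 in KO chow and 43.7, 51.2, 59.7 and 28.03 in WT chow. Both encode the short chains of type VI collagen. In WT every HFD library lay above every chow library, and in KO the lowest HFD library, KO HFD 1, lay below KO chow 4. Col6a1 rose by 0.996 (SE 0.27, adjusted p = 0.0298) in KO and 1.01 (SE 0.27, adjusted p = 0.028995) in WT, and Col6a2 by 1.098 (SE 0.28, adjusted p = 0.0231) in KO and 1.12 (SE 0.28, adjusted p = 0.0231) in WT (edgeR). Of 16 fits without a library, 6 in KO and 4 in WT lost the Col6a1 call, and 5 and 4 the Col6a2 call. Col6a3, the long chain whose cleaved end is known as endotrophin, averaged 52.1 ± 13.9 CPM per kb in KO HFD, 52.5 ± 13.2 in WT HFD, 29.8 ± 9.13 in KO chow and 30.3 ± 7.13 in WT chow. It missed the threshold within each genotype, at 0.81 (adjusted p = 0.0554) in KO and 0.80 (adjusted p = 0.058998) in WT, and passed over both, at 0.80 (SE 0.19, adjusted p = 0.004605) (edgeR). Per length it stood at 0.322 ± 0.0473 of Col6a1 in KO HFD, 0.311 ± 0.0546 in WT HFD, 0.393 ± 0.0677 in KO chow and 0.3705 ± 0.0399 in WT chow. Col6a6, a related chain, was called over both genotypes at 0.71 (adjusted p = 0.0249) by edgeR.

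The multiplexins had some of the larger rises among abundant chains. Col15a1 stood at 99.7, 171, 181 and 153 CPM per kb in KO HFD, 157, 153, 158 and 109.6 in WT HFD, 57.7, 34.3, 30.7 and 111 in KO chow and 67.1, 62.7, 98.8 and 32.97 in WT chow. Type XV collagen is found at the outer side of basement membranes in muscle, vessels and fat. KO HFD 1 lay below KO chow 4, and in WT the diets did not overlap. The rise was 1.38 (SE 0.39, adjusted p = 0.03297) in KO and 1.14 in WT, where it missed the threshold (SE 0.38, edgeR adjusted p = 0.0647). The KO call was lost in 6 of 16 fits without a library and in 5 of 13 other settings. Col18a1 stood at 50.3, 65.3, 65.05 and 58.4 CPM per kb in KO HFD, 63.02, 58.8, 62.1 and 51.9 in WT HFD, 25.97, 19.1, 16.3 and 46.7 in KO chow and 24.3, 29.6, 38.1 and 14.6 in WT chow. Type XVIII is a basement membrane proteoglycan whose end fragment is endostatin. All 8 HFD libraries lay above all 8 chow libraries, and it rose by 1.15 (SE 0.30, adjusted p = 0.0258) in KO and 1.15 (SE 0.30, adjusted p = 0.0266) in WT by edgeR. The Col18a1 call was lost in 6 of 16 fits without a library in KO and 5 of 16 in WT.

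Fibril-associated chains held the largest rise of any member. Col12a1 stood at 2.12, 2.57, 2.81 and 1.82 CPM per kb in KO HFD, 2.54, 3.41, 3.76 and 1.88 in WT HFD, 0.632, 0.285, 0.607 and 0.994 in KO chow and 0.398, 0.746, 0.498 and 0.545 in WT chow. Type XII collagen binds to type I fibres and is known from tendon, muscle and healing tissue. All 8 HFD libraries lay above all 8 chow libraries, the lowest HFD value of 1.82 being above the highest chow value of 0.994. Col12a1 rose by 1.89 (SE 0.32, adjusted p = 0.00446) in KO and 2.403 (SE 0.32, adjusted p = 0.00157) in WT by edgeR, and these calls held without any single library and in 12 of 13 other settings in KO (edgeR adjusted p = 0.0680 among libraries with a lymphoid score under 4) and 13 of 13 in WT. Col16a1, of a minor fibril-associated type, is given next. Col16a1 stood at 5.64, 9.33, 6.84 and 5.796 CPM per kb in KO HFD, 9.802, 10.1, 11.9 and 5.42 in WT HFD, 2.26, 0.743, 1.14 and 5.85 in KO chow and 2.08, 4.101, 2.73 and 1.53 in WT chow. It was called in WT, at 1.83 (SE 0.53, adjusted p = 0.0387), where the diets did not overlap, and not in KO, at 1.47 (SE 0.52, adjusted p = 0.0804) (edgeR). In KO the diets overlapped through KO chow 4, and in WT the call was lost in 8 of 16 fits that left out a library.

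Col14a1, another fibre-surface chain and a common marker of fibroblasts, was the most abundant of the class. Col14a1 stood at 17.1, 13.999, 11.3 and 10.003 CPM per kb in KO HFD, 9.25, 18.1, 21.3 and 18.3 in WT HFD, 9.81, 0.938, 1.87 and 3.26 in KO chow and 2.82, 11.7, 2.63 and 1.79 in WT chow. KO chow 1 and WT chow 2 stood apart from the other chow libraries, and they also had the highest progenitor and fibroblast scores of their groups (7.05 and 7.28, against 5.89 to 6.42 in the other 6 chow libraries) and the highest macrophage scores (6.54 and 6.85, against 4.98 to 5.91). The part of either score in the level of Col14a1 was not tested. Over both genotypes it rose by 1.77 (SE 0.49, adjusted p = 0.0146) by edgeR.

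Col20a1 was the member of the class that was called lower. Col20a1 stood at 0.537, 0.2596, 0.191 and 0.366 CPM per kb in KO HFD, 0.4697, 0.447, 0.414 and 0.269 in WT HFD, 0.563, 1.09, 0.882 and 0.705 in KO chow and 0.773, 0.664, 0.725 and 1.204 in WT chow. All 8 HFD libraries lay below all 8 chow libraries, and the log2 fold change was −1.26 (SE 0.33, adjusted p = 0.0228) in KO and −1.07 (SE 0.32, adjusted p = 0.04301) in WT by edgeR. The Col20a1 call was lost in 5 of 16 fits without a library in KO and 8 of 16 in WT. Summed counts of Col20a1 were 102 in KO HFD and 128 in WT HFD, against 262 in KO chow and 269 in WT chow. Col9a3, a cartilage chain of type IX, had 25, 20, 48 and 52 counts in KO HFD, WT HFD, KO chow and WT chow and was not called, with −1.09 (adjusted p = 0.0615) over both genotypes by edgeR. The mean log2 CPM of 5 Schwann cell markers was 2.83 to 3.17 in KO HFD, 2.86 to 3.37 in WT HFD, 3.23 to 3.74 in KO chow and 3.25 to 3.75 in WT chow, without overlap between diets in KO and with overlap in WT. Of these markers, the transcription factor gene Sox10 was called lower over both genotypes, at −0.87 (adjusted p = 0.01297) by edgeR. Sox10 is 1 gene and does not stand for the list, whose count of calls is not reported here. The part of these markers in the falls of Col20a1 and Col27a1 was not tested.

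In the minor classes, Col8a1, a short-chain network collagen made by vessel cells, rose over both genotypes by 0.78 (SE 0.24, adjusted p = 0.0228) by edgeR. The anchoring fibril chain Col7a1 just missed the threshold, at −1.01 (adjusted p = 0.0504) over both genotypes. Of the transmembrane collagens, Col23a1 had 0.20 (adjusted p = 0.185), Col13a1 −0.67 (adjusted p = 0.0774) and Col17a1 −0.46 (adjusted p = 0.479) over both genotypes (edgeR). None of these was called within a genotype.

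A single library was lowest for most of the abundant chains in KO chow, WT chow and KO HFD, while in WT HFD the lowest place was split. Over the 13 most abundant members, KO chow 3 was the lowest library of KO chow for 13 of 13 and WT chow 4 the lowest of WT chow for 13 of 13, and KO chow 4 was the highest of KO chow for 12 of 13. In KO HFD, library 1 was lowest for 11 of 13, and the highest place was split over libraries 2, 3 and 4 (4, 5 and 4 of 13). In WT HFD the lowest place was split between library 1 (7 of 13) and library 4 (6 of 13). The low libraries KO chow 3 and WT chow 4 had the highest lymphoid scores of the study, 5.47 and 5.62, and the lowest adipocyte scores, 11.16 and 10.97, and KO HFD 1 had the highest lymphoid score (4.71) and the lowest adipocyte score (11.8) of its group. The high library KO chow 4 had the highest adipocyte score (11.8) and muscle score (5.46) of its group and a lymphoid score close to 0. WT HFD went the other way. Its low libraries 1 and 4 had lymphoid scores of 0.30 and −0.91. Their adipocyte scores, 12.2 and 12.1, were the highest of the group. WT HFD 2, with a lymphoid score of 4.16, was lowest for 0 of 13. WT chow 2, with a score of 4.61, was highest of WT chow for 5 of 13. The part of these scores in the collagen levels was not tested. With the lymphoid score as a covariate 11 members were called in KO and 8 in WT, and 19 over both genotypes. Among the 10 libraries with a score under 4, 4 members were called in KO, 3 in WT and 14 over both (12 higher and 2 lower), in groups of 2 or 3 libraries. The share of all genes called in these settings is not given here, so these counts do not set collagen genes apart from other genes.

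**Figure D4:**
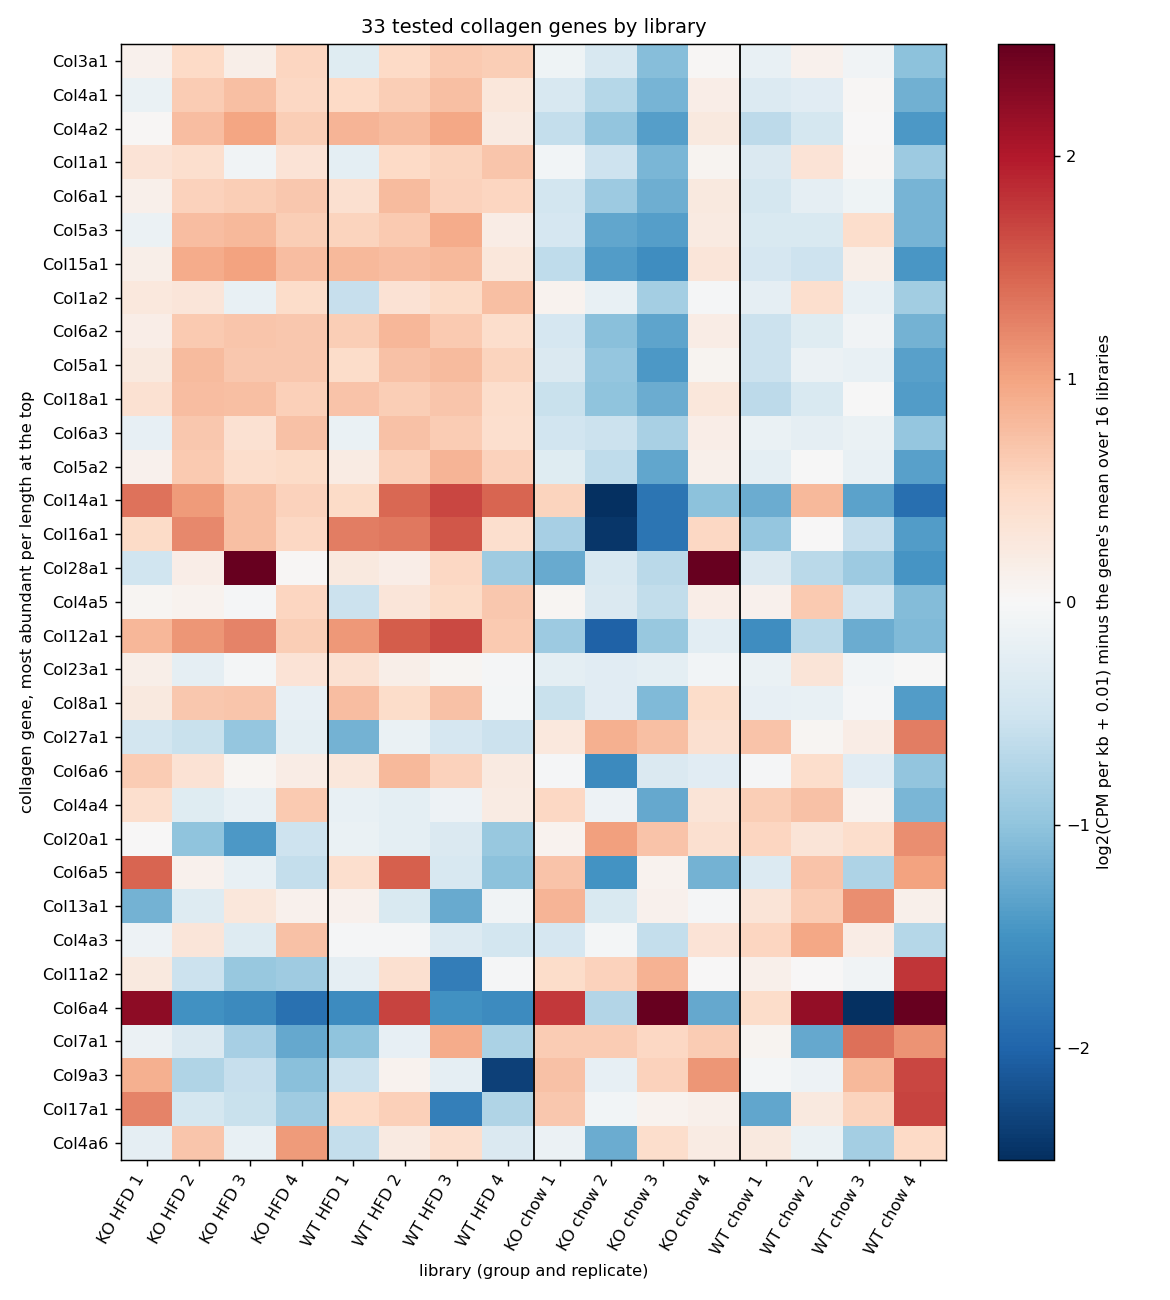
Each of the 33 tested collagen genes (rows, most abundant per length at the top) in each of the 16 libraries (columns, by group), as log2(CPM per kb + 0.01) minus the gene's mean; red is higher and blue lower, and the colour scale ends at 2.5 in each direction. KO chow 3 and WT chow 4 are the bluest columns in the abundant chains. Col28a1 is highest in KO HFD 3 and KO chow 4, and Col6a4 is higher in 6 libraries spread over the 4 groups.

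Col6a4 and Col28a1 were singled out after their values were seen. Col6a4, a type VI chain related to Col6a5 and Col6a6, was at 0.299 to 0.929 CPM per kb in the 6 libraries with a lymphoid score of 4 or more and at 0 to 0.122 in the other 10. Col6a5, its neighbour on chromosome 9, was at 0.302 to 0.820 in those 6 and at 0.0937 to 0.385 in the other 10. Neither was called between diets, with −1.69 (adjusted p = 0.219) and 0.37 (adjusted p = 0.5604) over both genotypes by edgeR. Col28a1, known from peripheral nerve, is the next such gene. Col28a1 stood at 0.852, 1.36, 10.7 and 1.24 CPM per kb in KO HFD, 1.43, 1.35, 1.74 and 0.642 in WT HFD, 0.5002, 0.913, 0.752 and 8.74 in KO chow and 0.9301, 0.747, 0.638 and 0.4296 in WT chow. KO HFD 3 and KO chow 4 stood alone, at 10.7 and 8.74 CPM per kb, while the other 14 libraries were at 0.430 to 1.74. Schwann cell scores were 2.86 and 3.72 in those libraries, within the 2.83 to 3.75 of all 16.

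**Figure D5:**
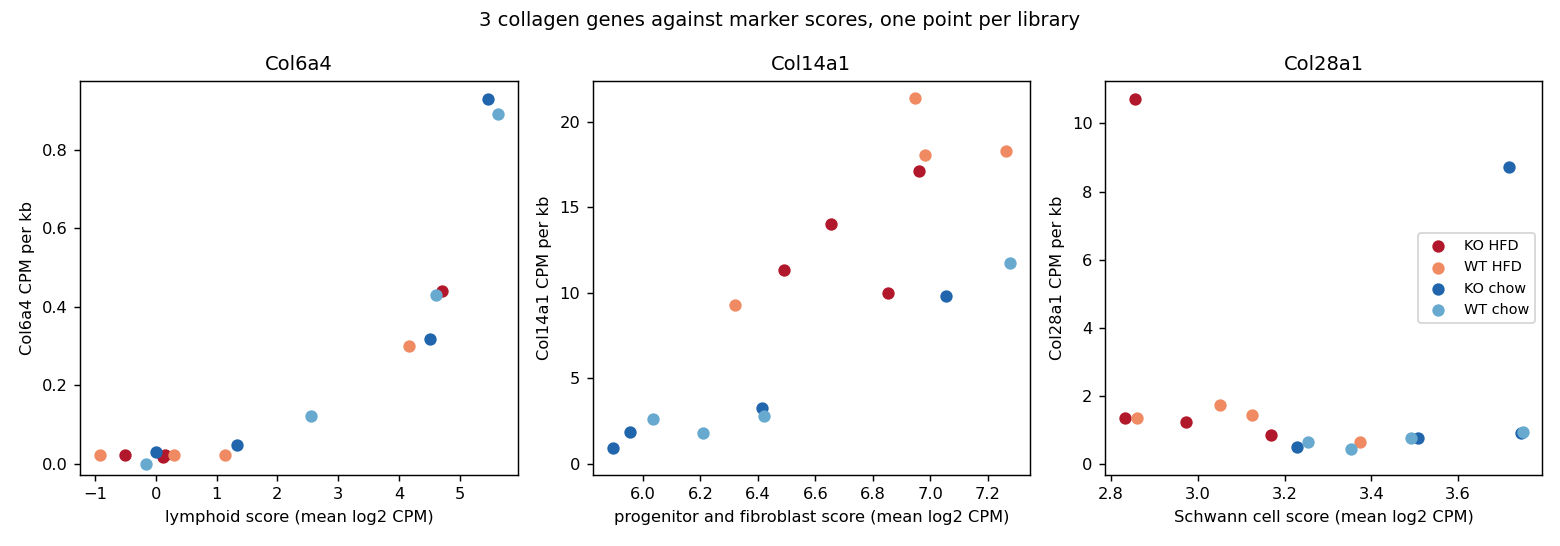
CPM per kb of Col6a4, Col14a1 and Col28a1 (y axes, from 0) against the mean log2 CPM of lymphoid, progenitor and fibroblast, and Schwann cell markers (x axes), with 1 point per library coloured by group. Col6a4 is at 0.299 or more in each of the 6 libraries with a lymphoid score of 4 or more, and Col28a1 is high in 2 libraries whose Schwann cell scores are 2.86 and 3.72.

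No collagen gene was called between KO and WT, on HFD, on chow or over both diets, and 0.00604% of all genes were (1 gene) in each of these comparisons. By edgeR 0 of 33 members had an unadjusted p under 0.05 on HFD, 0 on chow and 1 over both diets. That gene was Col28a1, at 1.72 on the log2 scale (unadjusted p = 0.0251, edgeR adjusted p = 0.99997), and without KO HFD 3 or KO chow 4, the libraries named above, it had 0.91 and 0.77. DESeq2 and limma-voom also called 0 members in each. DESeq2 gave no p-value for Col28a1 in any of these comparisons, so it could not have called that gene. For 0 members did KO and WT libraries not overlap, where 0.858% of all genes lay above and 0.562% below on HFD, and 0.26% above and 0.296% below on chow. Col1a1, on HFD, stood at −0.15 (95% interval −0.75 to 0.46) and on chow at −0.19 (−0.79 to 0.42) in KO relative to WT. Among the 13 most abundant members fold changes lay between −0.15 and 0.07 on HFD and between −0.30 and 0.02 on chow, with 95% intervals that together reached from −0.83 to 0.88 and from −1.09 to 0.72. The median half-width of the interval over the 33 members was 0.72 on HFD and 0.73 on chow. For a typical member, an estimate smaller than this does not reach an unadjusted p under 0.05. True differences of this size or larger could also be missed, more so after adjustment.

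Most members lay slightly below 0 in KO, 23 of 33 on HFD and 29 of 33 on chow, with a median of −0.07 and −0.09. Over all genes tested, 50.6% lay above 0 on HFD and 48.6% on chow. Chains measured in the same libraries are not independent, so these counts carry no test. The authors' deposited tables list 39 members on HFD and 40 on chow, and give an adjusted p for 37 and 39 of them. Of these, 0 members were under a DESeq2 adjusted p of 0.05 in either. Col28a1 had no adjusted p on either diet and Col6a4 had none on HFD. The authors' deposited shrunken log2 fold changes of the members were at most 2.03e-04 in size on HFD and 8.64e-05 on chow. Shrinkage pulled these values close to 0. Col28a1 on chow was at 1.99e-06 there, against 1.99 by edgeR and 1.98 by DESeq2 without shrinkage. The shrunken sizes are therefore not comparable with the fold changes given above.

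Whether the diet acted differently on collagen genes in the genotypes was tested as an interaction, in which 0 of 33 members and 0% of all genes were called by edgeR (0 members at an unadjusted p under 0.05, and 0 called by DESeq2 and limma-voom). Values for Col12a1 were −0.52 (95% interval −1.45 to 0.42) and for Col4a3, the largest, 0.93 (−0.10 to 1.96). The median half-width was 1.02, so for a typical member only a larger estimate would reach an unadjusted p under 0.05. True differences of that size could be missed.

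The genes that make, trim and join collagen were followed in 7 lists. The counts called stand beside 17.1% of all genes higher and 16% lower over both genotypes, 7.28% and 5.23% in KO and 6.9% and 4.92% in WT. Over both genotypes, 7 of 14 tested hydroxylation and glycosylation genes rose on HFD and 0 fell (4 rose in KO and 5 in WT). P4hb, the shared subunit of prolyl 4-hydroxylase, rose by 0.64 (adjusted p = 0.000244), Colgalt1, a collagen galactosyltransferase, by 0.31 (adjusted p = 0.00132), P3h1, a prolyl 3-hydroxylase, by 0.87 (adjusted p = 0.001595) and Plod3, a lysyl hydroxylase, by 0.83 (adjusted p = 0.00212) (edgeR). Of 8 chaperone and secretion genes 7 rose (6 in KO, 2 in WT), with Serpinh1, the collagen chaperone HSP47, at 0.91 (adjusted p = 0.00342), Creb3l2, a transcription factor of the secretory pathway, at 0.62 (adjusted p = 0.000546), and the coat proteins Sec24d and Sec23a at 0.76 (adjusted p = 0.0010005) and 0.59 (adjusted p = 0.00123) (edgeR).

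Outside the cell, 5 of 7 tested propeptide processing genes rose over both genotypes (2 in KO, 1 in WT), among them Adamts2, the N-proteinase of fibrillar procollagens, at 0.95 (adjusted p = 0.00142), Bmp1, the C-proteinase, at 0.61 (adjusted p = 0.00457) and its enhancers Pcolce2 at 1.86 (adjusted p = 0.00451) and Pcolce at 0.53 (adjusted p = 0.0198) (edgeR). Of 5 cross-linking oxidases 4 rose (0 in KO, 2 in WT), with Lox at 0.77 (adjusted p = 0.002999) and Loxl3 at 0.50 (adjusted p = 0.00425) (edgeR). Of 9 fibril regulators 5 rose (2 in KO, 3 in WT), among them the proteoglycan gene Bgn by 0.88 (adjusted p = 0.000586), the matrix protein gene Sparc by 1.17 (adjusted p = 0.000949), periostin's gene Postn by 1.01 (adjusted p = 0.00149) and the fibronectin gene Fn1 by 1.37 (adjusted p = 0.0426) (edgeR).

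Of 8 tested breakdown and uptake genes, 2 rose and 1 fell over both genotypes (0 in KO, 1 higher in WT), a share near the 33.1% of all genes called. Mrc2, an endocytic collagen receptor, rose by 1.998 (adjusted p = 0.00243) and Fap, a protease of activated fibroblasts, by 0.48 (adjusted p = 0.0197), and Mmp9, a gelatinase, fell with −1.304 (adjusted p = 0.0286) (edgeR). Mmp2, a gelatinase of fibroblasts, stood at 0.25 (adjusted p = 0.392). Of 8 tested receptors 3 rose and 1 fell (2 higher in KO, 2 in WT), where 17.1% of all genes were higher and 16% lower, the integrin Itgb1 at 0.57 (adjusted p = 0.00136), Ddr1 at 0.69 (adjusted p = 0.00144), Itga11 at 1.22 (adjusted p = 0.0154) and Itga10 at −1.14 (adjusted p = 0.0156) (edgeR). Median log2 fold changes over both genotypes were 0.39 for hydroxylation and glycosylation, 0.60 for chaperones, 0.57 for processing, 0.55 for cross-linking, 0.64 for fibril regulators, 0.14 for breakdown and 0.28 for receptors, beside −0.04 over all genes.

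Markers of the cells that could make these chains were set beside the diet calls, over both genotypes, where 17.1% of all genes were higher and 16% lower. Of 8 progenitor and fibroblast markers 0 were called (median 0.24 over both genotypes), of 5 endothelial markers 2 rose (Pecam1 and Tek, median 0.35), of 5 pericyte and smooth muscle markers 1 rose and 1 fell (Acta2 and Cspg4, median −0.24), of 5 macrophage markers 2 rose (Adgre1 and Cd68, median 0.54) and of 5 adipocyte markers 2 rose (Lep and Cidec, median 0.24). Of 12 tested muscle markers 0 were called (median −0.98), of 8 B cell markers 0 (median −1.01) and of 10 T cell markers 1 fell (Cd28, median −2.14). Only 1 of 5 epithelial and 1 of 3 mesothelial markers passed the filter, and of these the mesothelial one, Krt19, rose at 0.97 and the epithelial one stood at −1.16. The part of these cells in the collagen differences was not tested.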

How the data were processed

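Poly-A RNA of 16 fat depots was sequenced as paired reads of 150 bases. Per the submitters' processing notes, the authors aligned reads with STAR 2.7.3a to GRCm38.p6 and counted them with featureCounts 2.0.3 on Ensembl annotation 102. The table used here is their deposited count of read pairs per gene, made without regard to strand per the file headers, so overlapping genes on opposite strands were not told apart. Exons of 13 members overlap another gene, in 2 of them (Col9a3 and Col4a3) over more than 5% of their length. The authors' deposited DESeq2 tables give shrunken log2 fold changes and adjusted p-values of KO against WT on each diet, and were used for symbols and for the values credited to them.

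Counts were filtered with edgeR 4.0.16 (R 4.3.3), scaled by TMM and tested in one quasi-likelihood fit of all 4 groups, with Benjamini-Hochberg adjustment over 16549 genes in each of 7 comparisons. Levels per kilobase use the merged exon length of each gene. Alternatives were DESeq2 1.42.0, limma-voom (limma 3.58.1), other scalings and filters, marker scores as covariates, a replicate block and leaving out libraries. The steps were tested on simulated data. The members and lists were chosen with earlier results of these data known. Values are given library by library for the 10 most abundant members and for the largest called rises and falls, and other members are named where called or most abundant in their class. Each library is 1 animal, 4 libraries (KO HFD 1, WT HFD 3, WT HFD 4 and WT chow 2, so 3 of them HFD) were each read on a single lane, not the same one for all, and 12 were merged over lanes, and no pair of libraries agreed within sampling noise.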

Additional observations from a re-analysis of the deposited data

Results flagged for a closer look

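A library was marked where it stood apart from the other 3 of its group by a gap, as a share of the group's range, above Dixon's 95% critical value for 4 values. Over 132 sets of 4 libraries this gave 13 marks, where the nominal rate of 1 in 20 gives 6.6. That rate holds for independent sets of normally distributed values. The levels used were not on a log scale, some rest on few counts, and the sets share the same 16 libraries. The 13 marks beside 6.6 are therefore no test.

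Among abundant chains, Col1a1 was at 138 CPM per kb in KO HFD 3 (188 to 197 in the other KO HFD libraries), Col15a1 at 109.6 in WT HFD 4 (153 to 158 in the other WT HFD libraries), Col6a2 at 71.2 in KO HFD 1 (101 to 103) and Col6a3 at 19.6 in WT chow 4 (32.9 to 34.3). Col14a1 was at 11.7 in WT chow 2 (1.79 to 2.82). Col28a1 was at 10.7 in KO HFD 3 (0.852 to 1.36) and at 8.74 in KO chow 4 (0.500 to 0.913).

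Among low chains, Col11a2 was at 0.771 in WT chow 4 (0.203 to 0.237), and Col7a1 at 0.212 in KO chow 3 (0.231 to 0.232), a gap that is small in size. KO HFD 1, which also had the highest lymphoid score of its group, stood apart in Col6a4 at 0.440 (0.0164 to 0.0235), in Col9a3 at 0.239 (0.0543 to 0.0797) and in Col17a1 at 0.236 (0.0464 to 0.0666). In counts these were 53 (2 to 3 in the other KO HFD libraries), 13 (3 to 5) and 20 (4 to 6), so they rest on few reads. Col6a4 was also at 0.299 in WT HFD 2 (0.0222 to 0.0234), the WT HFD library with the highest lymphoid score.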

How the results depend on the processing

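The number of collagen genes called between diets within a genotype depended on the processing: 10 in KO and 11 in WT as reported, against 3 and 2 with no filter on low counts, 2 and 2 with a replicate block, and 4 and 3 among libraries with a lymphoid score under 4. In KO it was 4 when only the 8 libraries compared were fitted and 16 with limma-voom, and in WT it was 1 with merged libraries only. The share of all genes called in these settings is not given here, so these changes do not set collagen genes apart from other genes. Without single libraries the number of collagen genes ranged from 1 to 15 in KO and from 1 to 13 in WT. The calls over all genes then ranged from 745 to 2714 in KO and from 689 to 2400 in WT. Over both genotypes the count of 20 stayed between 14 and 21 in the other settings and between 18 and 23 without single libraries. Calls over all genes ranged from 4505 to 6041 without single libraries. For the other settings, the replicate block among them, the share of all genes called over both genotypes is again not given here. The counts between genotypes and for the interaction were 0 in every setting run and ranged from 0 to 0 without single libraries. No named gene changed direction among its called comparisons. The lymphoid and lane subsets and the pair of scores as covariates were chosen after seeing the data. The replicate numbers did not pair the samples: deviations of same-numbered libraries correlated at −0.69 to 0.55 over 24 pairs, with 9 over 0.1, and with the replicate block 17 members were called over both genotypes. The cause of these changes was not tested. Upper-quartile factors changed the split over all genes, to 919 higher and 1113 lower in KO (1205 and 866 with TMM) and to 902 and 1031 in WT (1142 and 815 with TMM), while the members' medians were 0.57 in both. With 4 animals a group, members with few counts, such as Col4a6 and Col9a3, have wide intervals.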
